A study of Mus musculus with 9 samples.

Results

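The comparison described here is the lower of the 2 PM2.5 doses, 1 mg/kg, against saline in the mouse hippocampus, for every mouse miRNA that was detected on all 3 arrays of at least one of both groups. Of the 1247 mouse miRNAs on the array, 421 met this rule, which is 33.8%. The rule asks only whether a miRNA was detected and does not look at the difference between the groups. PM2.5 is airborne particulate matter in the fine size range, here collected on filters and suspended in saline, and its inhalation has been linked to harm in the brain as well as the lung. PM2.5 was given to male C57BL/6 mice of about 8 weeks of age by oropharyngeal aspiration, on alternate days over 4 weeks, at 1 or 5 mg/kg. The control mice received saline in the same way. The study sets them apart from a vehicle control, given saline that had been sonicated with a blank filter, and the array labels say only control. Each group held 3 mice, and total RNA of each hippocampus was labelled with Cy3 and hybridised to an array of its own. The 3 arrays at 5 mg/kg enter the scaling and the fits. Their values are otherwise only set beside those at 1 mg/kg. Aspiration delivers the suspension as droplets into the airway, so the groups model instilled particles rather than breathed air, and all values come from whole hippocampus. In such bulk RNA, fewer cells of a type and less RNA per cell cannot be told apart.

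MicroRNAs are short RNAs that guide the silencing complex to mRNAs, mainly through base pairing of a seed at bases 2 to 8 from their 5′ end. miRNAs with the same seed form a family and can share targets, whereas hairpins that lie close together on a chromosome often form a cluster that is cut from one primary transcript. A family may therefore be spread over several chromosomes, and a cluster may hold several families. In brain some are bound to a cell type, such as miR-34b and miR-34c to cells with motile cilia, and miR-204 to the choroid plexus, the epithelium that makes cerebrospinal fluid.

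The mature sequences of the miRNAs on which the results turn are given 5′ to 3′, from RefSeq for the mouse build GRCm38.p6, with the seed in capitals. RefSeq sequences were matched by name for 345 of the 421 miRNAs. The first set rose at 1 mg/kg, and in it miR-34b-3p and miR-34c-3p share a seed. miR-34c-5p belongs to it as well.
miR-34b-5p: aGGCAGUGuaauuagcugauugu
miR-34b-3p: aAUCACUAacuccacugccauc
miR-34c-3p: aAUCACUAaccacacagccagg
miR-204-5p: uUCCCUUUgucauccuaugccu
miR-204-3p: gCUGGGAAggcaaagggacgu
miR-1298-3p: cAUCUGGGcaacugauugaacu
miR-5119: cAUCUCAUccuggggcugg
miR-193a-3p: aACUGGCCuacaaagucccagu

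The second set shows members of the 4 seed families whose members all lay on one side of the median of all 421 miRNAs, namely let-7, miR-29, miR-15/16 and miR-148/152.
let-7a-5p: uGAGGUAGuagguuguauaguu
let-7b-5p: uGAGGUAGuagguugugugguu
let-7c-5p: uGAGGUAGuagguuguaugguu
let-7f-5p: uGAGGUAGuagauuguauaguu
miR-29a-3p: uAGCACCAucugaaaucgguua
miR-29b-3p: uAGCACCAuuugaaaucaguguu
miR-29c-3p: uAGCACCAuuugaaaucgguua
miR-15a-5p: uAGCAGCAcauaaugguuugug
miR-16-5p: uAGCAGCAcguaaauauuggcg
miR-195a-5p: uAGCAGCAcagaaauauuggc
miR-148a-3p: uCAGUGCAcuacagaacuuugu
miR-148b-3p: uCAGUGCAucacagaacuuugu
miR-152-3p: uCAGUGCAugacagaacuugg

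The third set is the miR-200b, miR-200a and miR-429 cluster, which had the lowest median difference from control of any cluster, though none of its members passed the test. It is spread over 2 seeds, since miR-200b-3p and miR-429-3p share one that miR-200a-3p does not have.
miR-200b-3p: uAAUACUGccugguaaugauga
miR-200a-3p: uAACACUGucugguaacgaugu
miR-429-3p: uAAUACUGucugguaaugccgu

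The last set holds miRNAs with runs of AC units that fell at 1 mg/kg, beside miR-574-5p, the UG-rich miRNA that the study followed.
miR-574-5p: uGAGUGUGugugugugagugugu
miR-466i-3p: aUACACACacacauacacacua
miR-466q: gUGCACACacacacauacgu
miR-467f: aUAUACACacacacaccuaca

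Between 410 and 436 miRNAs were detected on each of the 9 arrays, with 420, 429 and 410 on the control arrays and 425, 433 and 436 at 1 mg/kg. No spot was saturated. The slide layout was not balanced: on the first slide, the 3 controls sat in row 1 together with 1 mg/kg replicate 1, while row 2 held 1 mg/kg replicates 2 and 3 with 5 mg/kg replicates 1 and 2. The remaining array, 5 mg/kg replicate 3, sat in row 1 of the second slide. In a fit with the row as a block, all controls share row 1, so the row effect was estimated from both dose groups. Its values for this contrast therefore also draw on the 5 mg/kg arrays and on both slides. Of the 33 calls described below, 8 passed in it: miR-5119, miR-193a-3p, miR-143-3p, miR-681, miR-709, miR-669c-3p, miR-706 and miR-337-5p. The number of arrays, 3 a group, limits the precision, and the p-values measure only the spread between these mice. All levels below are log2 signals scaled to the array's 75th percentile, so that 0 is that percentile that a difference of 1 is a 2-fold change, and levels are compared only within one miRNA. A miRNA is said to have risen or fallen where limma gave an unadjusted p under 0.05, without adjustment over the 424 miRNAs tested unless that is stated.

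Most hippocampal miRNAs lay near their control level at 1 mg/kg. The median difference from control was -0.03 on the log2 scale, 329 of the 421 miRNAs differed by less than 0.2 in either direction, and the differences ran from -0.64 for miR-200a-3p to 1.45 for miR-1298-5p. By limma, 33 of 424 tested passed an unadjusted p under 0.05, which is 7.78%, with 12 higher (2.83%) and 21 lower (4.95%). After Benjamini-Hochberg adjustment 1 passed, which is 0.236%, and it was miR-5119. The arrays of both groups did not overlap for 20 higher miRNAs (4.72%) and 32 lower ones (7.55%). With 3 arrays against 3 an exact two-sided permutation test cannot go below p = 0.1, so non-overlap is the strongest ordering a single miRNA can show.

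The rises were large in few miRNAs, and the falls were small in more of them. The 12 that rose had a median difference of 0.77 against -0.30 for the 21 that fell. By brightness, 5 of the 12 were among the 106 dimmest miRNAs and 1 among the 105 brightest. Of the 12, 5 were detected on all 3 arrays of the 1 mg/kg group but not on all 3 control arrays, so these entered the comparison through the group in which they were high. Of the 21 that fell, 20 were detected on all 6 arrays and the other, miR-681, on all 3 control arrays only. At 5 mg/kg, measured against the same 3 control arrays, the 21 that fell were all below control with a median of -0.28, whereas 7 of the 12 that rose were above control with a median of 0.088. Since both doses share these controls their values are only set side by side here, and no test was made of one dose against the other. The direction of the counts depends on scaling: with no scaling 26 were higher and 2 lower, with the 75th percentile taken over all miRNAs 16 were higher and 17 lower, and with the software's total gene signal 37 were higher and 6 lower. The median of all members was 0.08 with no scaling and 0.10 with the total gene signal, so the small falls near -0.3 are falls relative to the other miRNAs of the array.

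**Figure D1:**
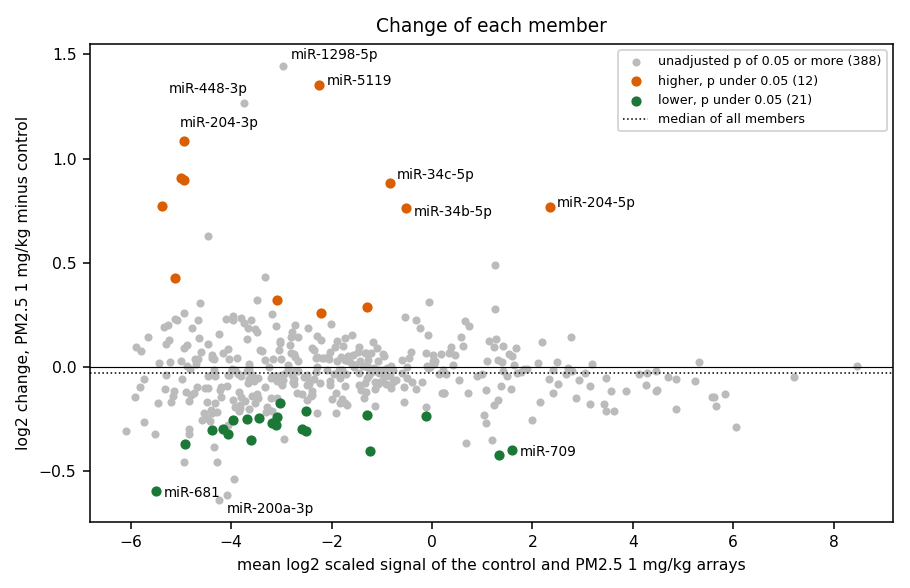
Difference between 1 mg/kg and control (log2, vertical axis) against the mean log2 signal over both groups (horizontal axis, relative to the 75th percentile of the array) for the 421 miRNAs. Orange points are the 12 that rose and green points the 21 that fell at an unadjusted p under 0.05, grey points are the other 388, and the dotted line is the median of all. The orange points reach farther from the line than the green ones.

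The clearest group to rise was the pair of neighbouring hairpins that encode miR-34b and miR-34c, miRNAs that promote the formation of motile cilia and that multiciliated cells hold in plenty. The hairpins lie at chr9:51103034-51103645 on the minus strand of GRCm38.p6, within the spans of Btg4 and Hoatz. miR-34c-5p measured -1.67, -0.94 and -1.25 on the control arrays and -0.83, -0.38 and -0.01 at 1 mg/kg. miR-34b-5p measured -1.23, -0.62 and -0.85 in control and -0.44, -0.13 and 0.16 at 1 mg/kg. For both of these arms the lowest 1 mg/kg array lay above the highest control array. The differences were 0.88 with a standard error of 0.33 for miR-34c-5p, a 1.84-fold change, and 0.76 with a standard error of 0.28 for miR-34b-5p, a 1.70-fold change. The opposite arms also rose, miR-34b-3p by 0.91 and miR-34c-3p by 0.90, but their groups overlapped, and they were detected on 1 and 2 of the 3 control arrays and so entered through the group in which they were high. Normexp background correction, here and below, adds an offset of 50 to every spot, which by itself compresses the differences of dim miRNAs. With it the 5p differences were 0.57 for miR-34b-5p and 0.62 for miR-34c-5p and still passed. Those of the 3p arms were 0.05 for miR-34b-3p and 0.06 for miR-34c-3p and did not. The adjusted p in limma for miR-34b-5p and for miR-34c-5p was 0.538. By the LSD comparison, which uses each miRNA's own spread, no arm of miR-34b or miR-34c passed. In the deposited table miR-34c-5p and miR-34c-3p did not pass.

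At 5 mg/kg neither arm stood apart from control. miR-34b-5p measured -1.29, -0.40 and -1.34 and miR-34c-5p measured -1.57, -0.63 and -1.75 at the higher dose, differences of -0.11 and -0.02 from the same controls. The second 5 mg/kg array lay above every control array for both, and the other 2 lay below or among them. The row of the slide moves with this result: within row 1, 1 mg/kg replicate 1 stood 0.46 above the control mean for miR-34b-5p and 0.45 for miR-34c-5p. A row block gave 0.45 for each of these arms, and no arm then passed the test. All 4 calls were also lost without control replicate 1, the lowest of the 3, and without 1 mg/kg replicate 2 or replicate 3, with 5p differences between 0.60 and 0.76 for miR-34b-5p and between 0.68 and 0.87 for miR-34c-5p. Without control replicate 3 the calls of miR-34c-5p, miR-34c-3p and miR-34b-3p were lost, at 0.90, 0.88 and 0.87, and without 5 mg/kg replicate 1, which enters through the shared spread, that of miR-34c-3p. The relative with the seed of miR-34b-5p, miR-34a-5p from a hairpin at chr4:150068454-150068555, was chosen after its values were seen. It measured 2.00, 0.61 and 1.48 in control and 0.63, 0.88 and 1.52 at 1 mg/kg, a difference of -0.35 with a standard error of 0.55 and with all 1 mg/kg values inside the range of the controls. All 5 miR-449 miRNAs on the array, whose 5p arms share that seed and which are also found in multiciliated cells, were detected on none of the 6 arrays.

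Some of the miRNAs known from the choroid plexus rose beside miR-34b and miR-34c. Of 14 on the array, 8 met the detection rule and 4 were detected on none of the 6 arrays, and 4 of the 8 met it only through the 1 mg/kg arrays. Counts over the 8 are therefore a description only: 3 rose at an unadjusted p under 0.05, where 2.83% of all tested rose. Of these, miR-204-3p and miR-1298-3p met the rule only through the 1 mg/kg arrays. The 4 that were detected on all 6 arrays were miR-204-5p, miR-1298-5p, miR-211-5p and miR-211-3p, with differences of 0.77, 1.45, 0.43 and -0.05, of which that of miR-204-5p passed. miR-204-5p and miR-204-3p, cut from one hairpin at chr19:22750605-22750672 within the span of the channel gene Trpm3, both rose. miR-204-5p measured 1.57, 2.23 and 2.07 in control and 2.37, 2.73 and 3.08 at 1 mg/kg, a difference of 0.77 with a standard error of 0.28, or 1.70-fold. miR-204-3p measured -5.90, -5.10 and -5.42 in control and -4.86, -4.36 and -3.95 at 1 mg/kg, a difference of 1.08, but it was detected on 1 of the 3 control arrays. Neither arm's groups overlapped. miR-1298-3p, from chrX:147064905-147065002 within the span of Htr2c, the serotonin receptor gene most strongly used in choroid plexus, rose by 0.77 with a standard error of 0.34, and it was detected on 2 of the 3 control arrays. With normexp background correction miR-204-5p was at 0.75 and still passed, whereas miR-204-3p was at 0.08 and miR-1298-3p at 0.02 and did not. Without control replicate 1 none of the 3 passed, and neither did they without 1 mg/kg replicate 3, when miR-204-5p was at 0.58 and 0.59. miR-204-5p was also lost without 1 mg/kg replicate 2, at 0.77, and miR-1298-3p when any control or 1 mg/kg array was left out, between 0.61 and 0.86. By the LSD comparison miR-204-5p and miR-1298-3p did not pass, and in the deposited table miR-1298-3p did not.

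The other miRNAs hosted by Htr2c moved with a wide spread in the controls. miR-1298-5p, chosen after its values were seen, measured -4.88, -2.86 and -3.32 in control and -2.73, -2.31 and -1.68 at 1 mg/kg. miR-448-3p, chosen in the same way and hosted by the same gene, measured -5.47, -3.61 and -4.03 in control and -3.31, -3.30 and -2.71 at 1 mg/kg. Both separate the groups fully, yet control replicate 1 lay far below the other controls, and their differences of 1.45 and 1.26 carried standard errors of 0.82 and 0.68 and did not pass the test. Since miR-448-3p met the detection rule only through the 1 mg/kg arrays, its separation is a description only. The third miRNA of the gene, miR-764-5p, differed by 0.63 with a standard error of 0.67, and it too met the rule only through the 1 mg/kg arrays. miR-211-5p, from the related gene Trpm1, differed by 0.43 with a standard error of 0.22. miR-764-5p and miR-211-5p were also chosen after their values were seen.

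Over the arrays, the choroid plexus and the ciliated miRNAs had their lowest control and their highest value on the same arrays. The mean level of the 8 choroid plexus miRNAs was -4.17, -3.19 and -3.41 in control, -2.99, -2.85 and -2.55 at 1 mg/kg and -3.33, -3.0 and -4.54 at 5 mg/kg. The mean of the 4 miR-34b and miR-34c miRNAs was -3.66, -2.85 and -3.27 in control, -2.80, -2.36 and -2.03 at 1 mg/kg and -3.55, -2.64 and -3.73 at 5 mg/kg. In both lists control replicate 1 was the lowest control array and 1 mg/kg replicate 3 the highest of all, and in the ciliated list 5 mg/kg replicate 2 also lay above 1 mg/kg replicate 1. The median of the choroid plexus list relative to that of all miRNAs was 0.80, against 0.31 with a row block, when no member passed the test, and 0.10 with normexp background correction. In these lists, 4 of the 8 and the 3p arms of miR-34b and miR-34c met the detection rule only through the 1 mg/kg arrays. Means and medians that hold them are descriptions only. With miRNAs detected on all 9 arrays only, the relative medians were 0.63 for choroid plexus and 0.86 for the ciliated list. The part of the choroid plexus and ciliated miRNAs in the other differences between the groups was not tested.

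**Figure D2:**
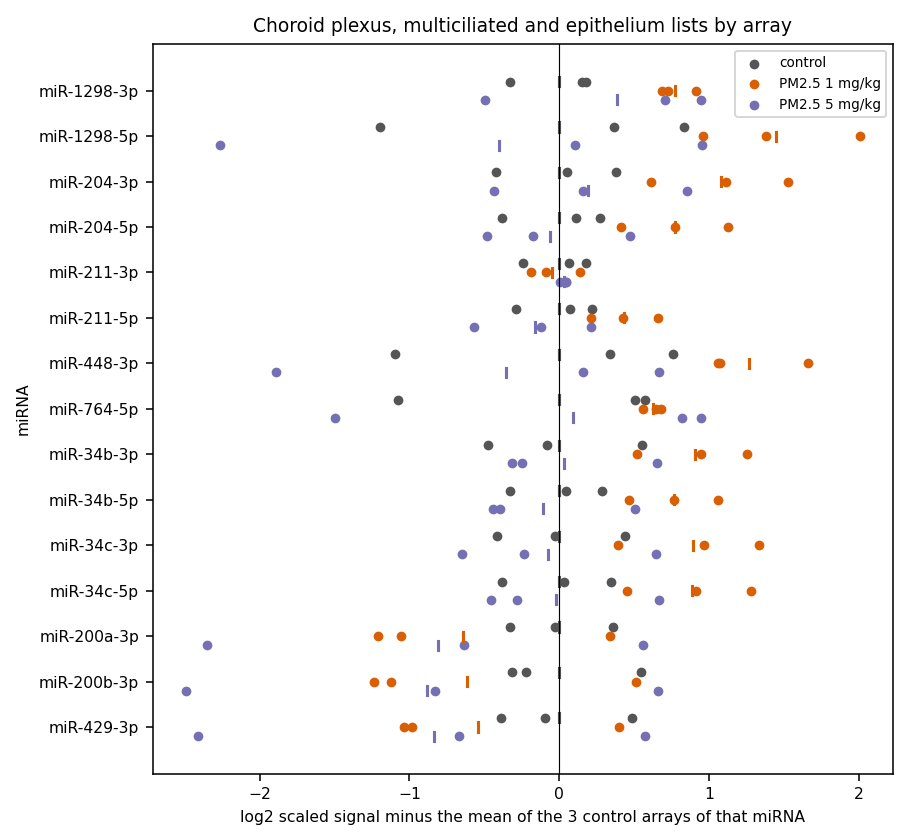
Log2 signal of each member of the choroid plexus, ciliated and epithelium lists on every array, minus the mean of the 3 control arrays for that miRNA (log2, horizontal axis). Points are arrays, grey for control, orange for 1 mg/kg and purple for 5 mg/kg, and vertical ticks are group means. In the choroid plexus and ciliated lists the orange ticks lie to the right of 0 for every miRNA but miR-211-3p. Orange and grey points overlap for some of these, miR-34b-3p and miR-34c-3p among them. In the epithelium list the arrays of every group are spread widely.

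The largest single rise was that of miR-5119, a miRNA of 19 bases whose hairpin lies at chr11:98262606-98262662 within the span of Cdk12. It measured -2.75, -3.10 and -2.93 in control, -1.21, -1.83 and -1.68 at 1 mg/kg and -3.39, -3.24 and -3.29 at 5 mg/kg. All 1 mg/kg arrays lay above all control arrays, and all 5 mg/kg arrays lay below them. The difference of 1.35 with a standard error of 0.16, 2.56-fold, had an adjusted p of 0.00872 in limma. Its 3 probes gave 1.29 to 1.49, but they are nested, at bases 8 to 19, 7 to 19 and 6 to 19, so they are not separate readings. With the row as a block the difference was 1.55. The unadjusted call held under all 23 alternatives, between 0.47 and 1.93. The adjusted p in limma was 0.105 with normexp background correction, 0.119 in the deposited table, 0.0609 with both groups alone, and 0.0548 and 0.0632 without control replicates 2 and 3, and it was 0.0811 by the LSD comparison.

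The remaining rises were smaller. miR-193a-3p rose from -3.26, -3.26 and -3.23 to -3.08, -2.83 and -2.87, a 1.25-fold difference, and with the row as a block it was 0.27 and still passed, but with normexp background correction it was 0.07 and did not. miR-143-3p, which is abundant in smooth muscle of vessels, was 0.29 higher with 1 control array among the 1 mg/kg arrays, and 0.36 higher with the row as a block. Its call was lost without control replicate 1 or 2 or 1 mg/kg replicate 1, at 0.27, 0.24 and 0.18. miR-466b-3p was 0.43 higher, but it was detected on 1 of the 3 control arrays, its groups overlapped, with normexp background correction the difference was -0.019, and with the row as a block it was 0.27 and did not pass. By the LSD comparison neither miR-143-3p nor miR-466b-3p passed.

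The miRNAs that fell did so by small and even steps. miR-709 had the lowest p of those that fell: it measured 1.79, 1.83 and 1.76 in control and 1.46, 1.42 and 1.31 at 1 mg/kg, a difference of -0.40 with a standard error of 0.08 and an adjusted p of 0.143 in limma. Its 5 mg/kg arrays, at 1.32, 1.51 and 1.34, also lay below every control array, and with the row as a block the difference at 1 mg/kg was -0.39. miR-706 fell from -3.93, -3.82 and -3.95 to -4.15, -4.18 and -4.35 and miR-669c-3p from -4.71, -4.63 and -4.89 to -5.02, -5.09 and -5.23. Both keep their groups apart, and both passed with the row as a block, at -0.29 and -0.27. Under the software's total gene signal, which adds only the probes it calls detected, they turned to 0.14 and 0.11, and with normexp background correction both were at -0.11 and did not pass. miR-681, from within the span of Cdkl1, fell by 0.60, but it was detected on all 3 control arrays and on 1 of the 3 at 1 mg/kg, so its level at that dose lay near the detection limit. With normexp background correction it was at -0.10 and did not pass. miR-1983 fell from -4.20, -4.26 and -4.23 to -4.36, -4.59 and -4.66, without overlap, and its call was lost with normexp background correction, at -0.11, and with a row block, at -0.25. To complete the 21, miR-3473b, miR-3473a, miR-3470a, miR-697, miR-3962, miR-1187 and miR-5107-5p, chosen after their values were seen, fell by 0.43, 0.40, 0.30, 0.27, 0.25, 0.25 and 0.21. Of these 7, miR-697 and miR-3962 kept the groups apart. All 7 calls were lost with a row block, and all but that of miR-3962 without control replicate 1 and without 1 mg/kg replicate 2 or replicate 3.

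A run of the falls came from the repeat-derived miR-466, miR-467 and miR-669 families, of which many lie in one intron of Sfmbt2. Those that fell were not traced to that intron. The matched ones, miR-466i-3p, miR-466q and miR-467f, lie on chromosomes 13, 3 and 11, and the others had no RefSeq match. miR-574-5p is grouped with these families here for its UG-rich sequence. The list also takes in miR-297a-3p, miR-297b-5p and miR-297c-5p, none of them members. Of its 62 miRNAs on the array, 44 were detected on none of the 6 arrays and 17 were members. Of the 17, 8 fell and 1 rose, the 8 that fell without overlap, where 4.95% of all tested fell and 7.55% were lower without overlap. The median of the 17 was -0.24 against -0.03 over all members, and relative to the latter it was -0.20, or -0.059 with normexp background correction, which ended 6 of the 8 calls. miR-466i-3p measured -3.80, -4.05 and -4.17 in control and -4.24, -4.27 and -4.41 at 1 mg/kg, and miR-669p-3p measured -2.20, -2.40 and -2.47 against -2.54, -2.69 and -2.78. miR-466i-5p, the UG-rich opposite arm, measured 0.05, -0.12 and 0.04 against -0.13, -0.25 and -0.35. In each the lowest control array stood just above the highest 1 mg/kg array, so the separation was narrow. With no scaling none of the 8 passed the test in limma, at -0.26 for miR-669c-3p and -0.19 for miR-466i-3p, and with the row as a block miR-669c-3p alone passed. Without control replicate 1, 6 of the 8 calls were lost, all but miR-669c-3p and miR-669p-3p, and without 1 mg/kg replicate 3, 5 were lost. miR-466f-3p, miR-467f, miR-466q and miR-466h-3p fell by 0.35, 0.28, 0.25 and 0.24. The falls were not shared by the whole group, since miR-467a-5p, miR-467b-5p, miR-467e-5p and miR-669f-3p were 0.22 to 0.23 above control without passing the test and were chosen after their values were seen.

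miR-574-5p itself measured -1.60, -1.72 and -1.51 in control and -1.68, -1.79 and -1.91 at 1 mg/kg. 1 mg/kg replicate 1 lay among the controls, and the difference of -0.19 with a standard error of 0.09, 0.880-fold, did not pass the test, against -0.21 at 5 mg/kg. Within row 1 the difference was -0.07. By sequence, a run of at least 4 AC units was present in 3 of the 345 matched miRNAs (0.87%), namely miR-466i-3p, miR-466q and miR-467f, and all 3 were among the 21 that fell. A run of at least 4 UG units was present in 5 of the 345 (1.45%), miR-1187, miR-3082-5p, miR-574-5p, miR-672-5p and miR-669n, with differences of -0.25, -0.22, -0.19, -0.01 and 0.08, and miR-1187 alone of these fell. With the total gene signal miR-466i-3p turned to 0.37. The median GC content was 47.6% in the miRNAs that rose and 47.6% in those that fell, against 47.8% over all matched miRNAs.

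**Figure D3:**
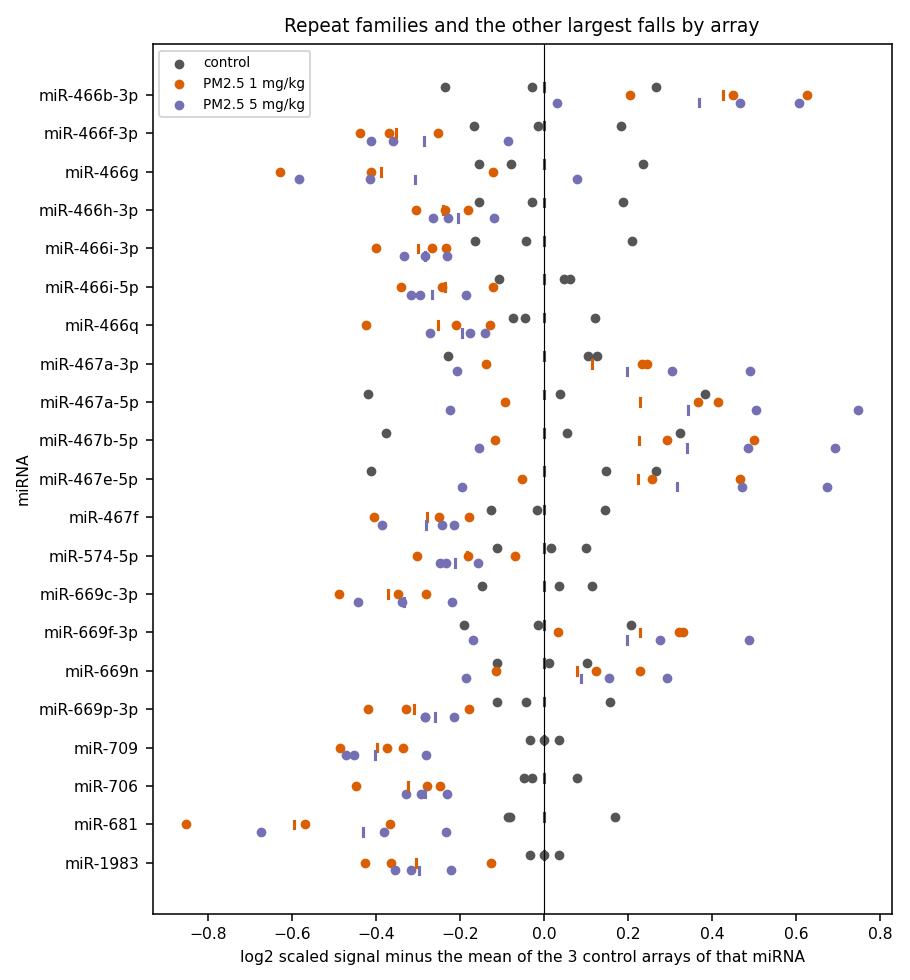
Log2 signal of each of the 17 members of the miR-466, miR-467 and miR-669 families and miR-574-5p on every array, minus the mean of the 3 control arrays (log2, horizontal axis). miR-709, miR-706, miR-681 and miR-1983 are drawn in the same way. Points are arrays, grey for control, orange for 1 mg/kg and purple for 5 mg/kg, and vertical ticks are group means. Orange and purple ticks lie to the left of 0 for the 8 of the 17 that fell and for miR-709, miR-706, miR-681 and miR-1983. They lie to the right for miR-466b-3p.

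Seed families were next taken as units. Families and clusters hold only the 345 miRNAs matched to RefSeq, so miR-34c-5p, for one, is in neither. Of 10 families with at least 3 members, holding 42 miRNAs, 4 had every member on one side of the median of all members, 3 of them below it and 1 above it. The printed let-7 sequences differ at few bases, as do miR-29a-3p and miR-29c-3p, and their probes cover nearly the same stretch. Such members may not be separate readings, which was not tested. let-7, a family that restrains growth and pluripotency genes, lay wholly below, with its 10 members between -0.20 and -0.07 and a median of -0.12. None of its 10 members passed an unadjusted p under 0.05 in limma, and let-7e-5p and miR-98-5p kept their groups apart. let-7c-5p measured 5.92, 5.68 and 5.65 in control and 5.49, 5.48 and 5.70 at 1 mg/kg, so that the third 1 mg/kg array lay among the controls. The mean over the family was 3.56, 3.43 and 3.42 in control and 3.29, 3.28 and 3.44 at 1 mg/kg. The median was -0.091 at 5 mg/kg, but the family stood 0.0040 from the median of all miRNAs with quantile normalization, so its distance from the other miRNAs depends on the scaling.

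miR-29, which targets collagens and other matrix genes and, as the study lists it, BACE1, also lay wholly below, with a median of -0.11. Relative to the median of all miRNAs the family was at -0.082, against -0.013 with quantile normalization and -0.045 without control replicate 1. miR-29a-3p measured 5.98, 5.86 and 5.89 in control and 5.81, 5.67 and 5.85 at 1 mg/kg, without overlap and at a difference of -0.13. miR-29b-3p and miR-29c-3p differed by -0.06 and -0.11 with overlap. The miR-15/16 family, known for targets in the cell cycle and apoptosis, lay below with a median of -0.083, and its member farthest away, miR-195a-5p, measured 1.62, 0.91 and 1.08 in control and 0.68, 0.69 and 1.43 at 1 mg/kg. Control replicate 1 and 1 mg/kg replicate 3 were the high arrays, and with the row as a block the family median stood 0.034 above that of all miRNAs.

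miR-148/152, which targets the DNA methyltransferase gene Dnmt1, was the family that lay wholly above, with a median of 0.12. Its rise came mainly from miR-152-3p, hosted by Copz2, which measured -2.44, -2.22 and -2.35 in control and -2.14, -2.01 and -2.09 at 1 mg/kg. miR-148a-3p differed by 0.12 and miR-148b-3p by 0.01, and neither passed the test. With the row as a block miR-152-3p was at 0.20 and no longer passed, with normexp background correction it was at 0.09, and its call was lost without any of the 6 arrays but control replicate 2, between 0.21 and 0.29. By the LSD comparison miR-152-3p did not pass. Without control replicate 1 the family median stood 0.025 above that of all miRNAs. The other families with a median far from that of all members did not lie on one side, the miR-130a-3p family at 0.093 and the miR-100-5p family at 0.039.

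**Figure D4:**
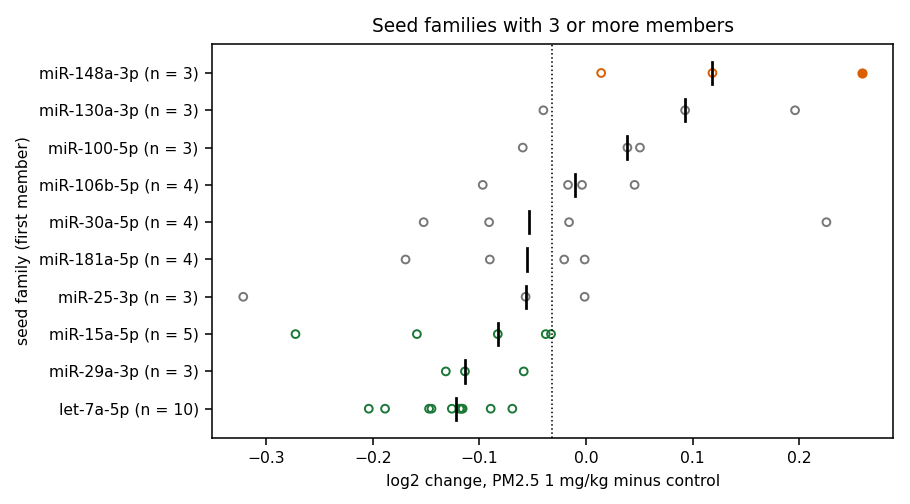
Difference between 1 mg/kg and control (log2, horizontal axis) for every member of the 10 seed families. Filled circles passed an unadjusted p under 0.05 and open circles did not, orange marks families wholly above and green families wholly below the median of all members (dotted line), and black ticks are family medians. The let-7 points lie close together to the left of the line, and miR-152-3p is the filled point of the miR-148/152 family.

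Of 18 clusters with at least 3 members, holding 103 miRNAs, 7 lay on one side of the median, 6 below it and 1, miR-34b and miR-34c, above it. Its 3 matched arms ran from 0.76 to 0.91, but miR-34b-3p and miR-34c-3p entered only through the 1 mg/kg arrays, and relative to the median of all miRNAs the cluster was at 0.93, against 0.47 with a row block and 0.11 with normexp background correction. The cluster with the lowest differences from control was that of miR-200b, miR-200a and miR-429 at chr4:156053905-156055750, miRNAs that hold epithelial identity by repressing Zeb1 and Zeb2. Its median was -0.62 and its range -0.64 to -0.54, with none of its 3 members passing an unadjusted p under 0.05 in limma. miR-200a-3p measured -3.56, -4.25 and -3.95 in control, -5.13, -4.97 and -3.58 at 1 mg/kg and -6.27, -4.56 and -3.36 at 5 mg/kg. The third array of both PM2.5 groups lay near or above the highest control array, and the standard error of 0.69 was as large as the difference. The spread was shared by the cluster: its mean was -3.33, -4.14 and -3.91 in control, -4.94, -4.86 and -3.38 at 1 mg/kg and -6.21, -4.50 and -3.20 at 5 mg/kg. Relative to the median of all miRNAs its median was -0.58, against -1.10 without 1 mg/kg replicate 3, -0.32 without control replicate 1, -0.29 and -0.35 without 1 mg/kg replicates 1 and 2, -0.13 with a row block and -0.10 with normexp background correction. The other 13 miRNAs of the epithelial list, the rest of the miR-200 family and the miR-183 cluster, were detected on none of the 6 arrays.

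The remaining clusters on one side lay close to the median. miR-212 and miR-132, which neurons switch on with activity through CREB, lie at chr11:75173388-75173747 and had a median of -0.17 at 1 mg/kg and 0.039 at 5 mg/kg. miR-132-3p measured 3.79, 3.21 and 3.54 in control and 3.28, 3.02 and 3.71 at 1 mg/kg, which overlap. Relative to the median of all miRNAs the cluster was at -0.14, against -0.0034 without 1 mg/kg replicate 2, -0.021 without control replicate 1, -0.25 without 1 mg/kg replicate 3 and -0.0074 with the row as a block. The let-7d, let-7f-1 and let-7a-1 cluster at chr13:48536012-48538272 had a median of -0.14, with let-7d-3p and let-7a-1-3p lowest at -0.22 each. Relative to the median of all miRNAs it was at -0.11, against -0.019 with quantile normalization and 0.014 in the deposited table. The clusters that produce miR-29 had medians of -0.12, at chr6:31062660-31063093, and -0.10, at chr1:195037040-195037634, and they share miR-29b-3p, whose signal cannot be divided between its hairpins. In the former miR-29b-1-5p fell by 0.17 without overlap, but its probes differ in sign and the difference was 0.0075 with the total gene signal. Its call was also lost with a row block, at -0.14, and without control replicate 1, 1 mg/kg replicate 2 or 1 mg/kg replicate 3, between -0.16 and -0.12. Relative to the median of all miRNAs these clusters were at -0.089 and -0.072, against -0.019 and -0.018 with quantile normalization. The miR-23a, miR-27a and miR-24-2 cluster at chr8:84208518-84208921 had a median of -0.056. Relative to the median of all miRNAs it was at -0.024 and turned positive without control replicate 1 (0.052), without 1 mg/kg replicates 1 (0.040) and 2 (0.013), with a row block (0.048), with quantile normalization (0.010) and in the deposited table (0.0022).

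**Figure D5:**
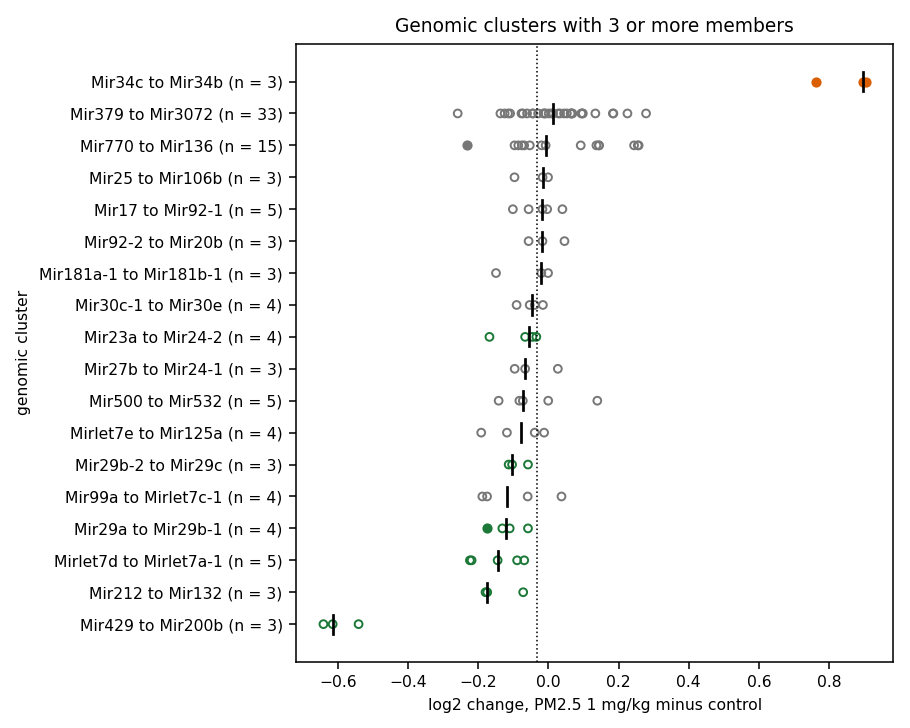
Difference between 1 mg/kg and control (log2, horizontal axis) for every member of the 18 genomic clusters. Filled circles passed an unadjusted p under 0.05 and open circles did not, orange marks clusters wholly above and green clusters wholly below the median of all members (dotted line), and black ticks are cluster medians. The 3 filled points of miR-34b and miR-34c near 0.9 and the 3 open points of the miR-200 cluster near -0.6 stand apart from the rest.

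The imprinted Dlk1-Dio3 region, which encodes a large set of clustered miRNAs that is expressed from the maternal chromosome, did not move as a block. Its pair of clusters held 48 members, and miRNAs of the region that were not matched to RefSeq or that lie farther from their neighbours are not among them. The 48, 15 at chr12:109563692-109595388 and 33 at chr12:109709060-109747960, were 26 above and 22 below control, with a median of 0.011 and a range of -0.26 to 0.28. miR-337-5p alone fell, from -1.18, -1.19 and -1.15 to -1.34, -1.44 and -1.44, a difference of -0.23 with a standard error of 0.06, and with the row as a block it still passed. At 5 mg/kg 39 of the 48 were above the same controls, with a median of 0.10.

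The arms of one hairpin largely moved to the same side. Both arms were members for 68 hairpins, and in 48 both lay on one side of the median of all miRNAs. Both arms passed the test for 4 hairpins, miR-34b, miR-34c and miR-204 upward and miR-466i downward, but the 3p arms of the first 3 entered only through the 1 mg/kg arrays and did not pass with normexp background correction. 1 arm passed for 2, miR-1298 and miR-337. Across hairpins the differences of the 5p and 3p arms had a Pearson r of 0.83, and 0.46 over the 64 pairs left without miR-34b, miR-34c, miR-204 and miR-1298. These are descriptions across hairpins that share the same arrays.

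Lists for other cell types had medians nearer to that of all miRNAs. The neuronal miRNAs were present at a high level, miR-124-3p at 5.80, 5.61 and 5.67 in control and 5.58, 5.45 and 5.62 at 1 mg/kg, and the 11 neuronal members had a median of -0.068 with none passing the test in limma at an unadjusted p under 0.05. miR-128-3p measured 6.39, 6.07 and 6.15 in control and 5.96, 5.71 and 6.07 at 1 mg/kg, a difference of -0.29 that did not pass the test, with a narrow gap between the groups. The 4 oligodendrocyte members were above control at 1 mg/kg with a median of 0.17 and below it at 5 mg/kg with a median of -0.28, and none passed the test at 1 mg/kg. The 4 members of the vessel wall list had a median of 0.12 with miR-143-3p passing. The 4 members of the white blood cell and microglia list, miR-142-3p, miR-150-5p, miR-155-5p and miR-223-3p, had a median of 0.11 with none passing, and the red blood cell miRNAs miR-451a and miR-144-3p differed by -0.03 and 0.09. The 3 muscle members had a median of 0.037, and 10 of the 13 muscle and liver miRNAs, both arms of the liver miRNA miR-122 among them, were detected on none of the 6 arrays.

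The lists that bear on the study's question gave mixed values. Of the miRNAs that inflammation induces through NF-κB, 4 of 10 were members, with a median of 0.013. In this list miR-155-5p was 0.22 higher and miR-146a-5p -0.08 from control, both without overlap, neither past the test, and miR-155-5p was detected on 1 of the 3 control arrays. Of the 15 members of the families listed as regulators of BACE1, the secretase that starts the cleavage of amyloid precursor protein, 13 were below control, as were 254 of all 421, and miR-29b-1-5p alone fell. The list takes both arms of a hairpin by name, and miR-29b-1-5p is an opposite arm that does not carry the seed of miR-29a-3p. The median was -0.096, and relative to that of all miRNAs it was -0.064, with 11 of the 15 below, against -0.033 with the total gene signal, -0.024 with normexp background correction and -0.018 with quantile normalization. miR-107-3p, from that list, measured 3.23, 3.21 and 3.17 in control and 3.15, 3.08 and 3.10 at 1 mg/kg, a difference of -0.10 without overlap that did not pass the test. Of the 17 members listed for synaptic and cognitive impairment 6 rose, the arms of miR-34b, miR-34c and miR-204 already described, and 8 were below control. Over all tested miRNAs 2.83% rose. The 3p arms among the 6 met the detection rule only through the 1 mg/kg arrays, so this count is a description only. The BACE1 and cognitive lists are families that the study names from earlier literature.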

How the data were processed

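Hippocampal total RNA of 9 mice was measured on 1-colour Agilent mouse miRNA arrays, 1 array per mouse, in 3 groups of 3 named by the labels. The authors scanned the arrays and extracted spot intensity with Agilent Feature Extraction 10.7, which subtracted background on each array and did not normalize between arrays. The deposited log2 table holds the authors' processed values, whose scaling steps are not stated, and it was used as an alternative only. No genome build was needed for the arrays, and sequences and coordinates are those of RefSeq for GRCm38.p6.

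From the processed signals, outlier spots (3.76 to 4.59% of spots) were left out, spots of a probe averaged and probes of a miRNA summed. Each array was divided by its 75th percentile (signals of 492 to 614), taken from the 395 miRNAs that all 9 arrays detected. Values were then floored at the array's lowest detected signal, and log2 was taken. Differences were tested with limma 3.58.1 in R 4.3.3 (linear model of the 3 groups, empirical Bayes, Benjamini-Hochberg over 424 miRNAs), after a check on simulated data. The 424 hold 3 miRNAs detected on all arrays at 5 mg/kg only.

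Families share bases 2 to 8 and clusters are hairpins within 10 kb, each with at least 3 members. A group is on one side where all its members lie above, or all below, the median of all members. The 14 miRNA lists cover choroid plexus, ciliated, epithelial, red and white blood, vascular, oligodendrocyte, neuronal, activity-induced, muscle and liver, and inflammation-induced miRNAs, regulators of BACE1, synaptic and cognitive miRNAs, and UG repeats. Named miRNAs are those at an adjusted p under 0.05, the 8 largest rises and falls among miRNAs whose groups did not overlap at an unadjusted p under 0.05, the members of the families and clusters on one side or farthest from the median (beyond 8 members, the 3 brightest and the 2 extremes), the brightest and the passing members of each list, and miR-574-5p. Members and lists were chosen with earlier results of these data known.

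Alternatives were the total gene signal, normexp background correction (offset 50), other scalings and filters, the deposited table, the methods' LSD comparison, both groups alone, blocks for replicate number, slide and row, and leaving out each array. Replicate numbers did not pair the samples. No 2 arrays held identical signals.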

Additional observations from a re-analysis of the deposited data

How the results depend on the processing

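Of 1509 values of the 66 named miRNAs under alternatives, 1333 stayed on their side of the threshold, 155 no longer passed, 16 newly passed and 5 reversed. A reversal was counted only for miRNAs that passed in the main fit. Several miRNAs that did not pass changed sign uncounted, such as let-7f-5p, which ran from -0.12 to 0.070. The 5 counted were miR-669c-3p (0.11), miR-706 (0.14), miR-466i-3p (0.37) and miR-29b-1-5p (0.0075) with the total gene signal, and miR-466b-3p (-0.019) with normexp. The 33 miRNAs at an unadjusted p under 0.05 became 14 with normexp and 8 with a row block, all 8 among the 33, and 11 to 49 when 1 array was left out, 11 without control replicate 1. The 1 miRNA at an adjusted p under 0.05 became 0 with normexp, the deposited table, both groups alone or the LSD comparison, 17 with no filter on low values, and 0 to 1 with an array left out. The 52 miRNAs without overlap became 20 with normexp and 81 with the total gene signal. The 4 families on one side became 2 with normexp and 2 to 6 with an array left out, and the 7 clusters 5 to 10. With the replicate block, 36 passed, 30 of them among the 33. By the LSD comparison 31 passed, 5 higher and 26 lower, and 20 of the 31 were among the 33. Correlations of same-numbered deviations from the group means ran from -0.039 to 0.28, so the numbers were not taken as pairs. Signal over background limits the dim miRNAs, since normexp compressed the differences of those near the floor. Causes were not tested.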
